A study of Drosophila melanogaster with 2 samples.

Results

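The dorsal ectoderm and amnioserosa genes described here are tup, ush, Doc1, Doc2, Doc3, brk, pnr, dpp, zen and tkv, which are 10 of the 13968 protein-coding genes on the chromosome arms. They were chosen by name for their place in dorsal patterning, with earlier results of these data known. Every peak or ranked region in each gene body or within 20000 bp of it was read. These windows merge into 8 stretches with 550 kb in all, because those of Doc1, Doc2 and Doc3 overlap. The data are chromatin immunoprecipitation followed by sequencing (ChIP-seq) peak lists for Dan, the nuclear protein encoded by distal antenna, in Drosophila melanogaster. Both biological replicates came from whole embryos aged 0 to 8 h of a dan-GFP strain, a transgenic insertion that makes a dan-eGFP fusion, and an anti-GFP antibody pulled down the tagged protein. There was no second genotype, age or treatment, so nothing below is a difference between conditions, and no test was made over genes that were picked by name. Whole embryos mix all cell types and several stages of development, so a peak cannot be given to the dorsal ectoderm or to the amnioserosa. Read depth is unknown.

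In the early fly embryo the bone morphogenetic protein (BMP) ligand Decapentaplegic (Dpp) signals on the dorsal side through the receptor Thickveins and the transcription factors Mad and Medea. The highest signalling, along the dorsal midline, specifies the amnioserosa, an extraembryonic epithelium, and lower signalling specifies the dorsal ectoderm beside it. Brinker, a repressor whose own gene Dpp signalling shuts off, keeps Dpp targets silent in more ventral cells, while Zerknüllt, the Dorsocross T-box proteins, Pannier, U-shaped and Tailup act downstream of Dpp in the dorsal cells.

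The sequences below lie under some of the summits described in this report. They are 201 bp windows centred on peak summits, read on the plus strand from the RefSeq Release 6 genome, the assembly on which dm6 is built. Capitals mark the letters of 10 strings on either strand. These strings were CAGGTAG (Zelda), GAGAGA (for the GAGA factor), GATAAG (for GATA factors such as Pannier), GTGTGA (a T-box core), TAATTA (homeodomain proteins), GGCGCT and TGGCGC (Brinker), the silencer element of Mad, Medea and Schnurri and CAGTG, for which no factor is given. GAGTGCA was added after the sequences had been seen. GTGCACT, which can overlap it, was also counted then and is not in capitals. The windows of the strongest brk peak, the weakest ush peak and the farthest tup peak are among those not shown. Those ush and tup windows hold none of the strings, so shares of strings come only from the counts given below. The first window lies upstream of tup (chr2L:18890184-18890384), the next is in a ush intron (chr2L:522060-522260), and the next 3 are in the Dorsocross cluster at chr3L:9011838-9012038, chr3L:9023625-9023825 and chr3L:9034361-9034561. The window near zen is chr3R:6762985-6763185, and those upstream of brk are chrX:7293710-7293910 and chrX:7306968-7307168. The last window is the strongest region near any of the 10 genes, at chr2L:480983-481183 in ush, which is in the joint ranked list and in no thresholded list.
tup, 9 kb upstream: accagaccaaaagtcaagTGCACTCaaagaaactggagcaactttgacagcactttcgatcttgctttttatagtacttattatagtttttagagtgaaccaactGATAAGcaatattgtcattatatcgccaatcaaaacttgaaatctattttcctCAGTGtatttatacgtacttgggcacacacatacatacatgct
ush, intron: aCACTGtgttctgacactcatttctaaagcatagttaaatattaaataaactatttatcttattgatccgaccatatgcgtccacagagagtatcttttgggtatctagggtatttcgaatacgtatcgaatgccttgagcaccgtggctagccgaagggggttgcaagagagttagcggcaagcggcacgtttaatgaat
Doc3 to Doc2: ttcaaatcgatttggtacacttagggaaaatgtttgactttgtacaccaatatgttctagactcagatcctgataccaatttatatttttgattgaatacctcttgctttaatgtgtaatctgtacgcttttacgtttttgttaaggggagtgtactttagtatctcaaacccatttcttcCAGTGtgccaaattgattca
Doc2, upstream: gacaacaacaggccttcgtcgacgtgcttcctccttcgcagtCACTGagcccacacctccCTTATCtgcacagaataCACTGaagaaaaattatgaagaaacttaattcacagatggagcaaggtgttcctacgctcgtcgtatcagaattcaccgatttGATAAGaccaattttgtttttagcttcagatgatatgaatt
Doc1, upstream: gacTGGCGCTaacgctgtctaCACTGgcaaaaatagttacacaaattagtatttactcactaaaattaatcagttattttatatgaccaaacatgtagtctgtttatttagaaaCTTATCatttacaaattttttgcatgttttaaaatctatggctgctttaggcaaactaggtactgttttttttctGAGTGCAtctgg
zen, in Ama: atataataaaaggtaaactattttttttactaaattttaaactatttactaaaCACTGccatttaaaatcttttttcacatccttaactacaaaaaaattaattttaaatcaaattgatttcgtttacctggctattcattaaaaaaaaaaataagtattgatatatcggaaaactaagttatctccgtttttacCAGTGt
brk, far upstream: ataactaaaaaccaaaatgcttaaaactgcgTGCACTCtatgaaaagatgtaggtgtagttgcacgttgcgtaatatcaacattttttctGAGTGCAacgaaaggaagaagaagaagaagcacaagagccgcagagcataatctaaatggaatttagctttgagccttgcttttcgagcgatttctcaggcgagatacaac
brk, near upstream: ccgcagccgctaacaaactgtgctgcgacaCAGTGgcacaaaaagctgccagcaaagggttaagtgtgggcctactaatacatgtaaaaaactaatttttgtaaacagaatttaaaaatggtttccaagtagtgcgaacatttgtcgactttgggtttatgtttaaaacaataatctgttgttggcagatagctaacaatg
ush, ranked list only: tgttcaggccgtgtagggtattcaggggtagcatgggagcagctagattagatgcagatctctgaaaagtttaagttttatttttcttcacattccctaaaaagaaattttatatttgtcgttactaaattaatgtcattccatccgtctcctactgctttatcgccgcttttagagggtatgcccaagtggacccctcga

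Dan peaks lay near 7 of the 10 genes in the conservative list, the shorter of the 2 thresholded lists made from both replicates. The 7 were tup, ush, Doc1, Doc2, Doc3 and zen, which act downstream of Dpp, and the repressor gene brk. The ligand gene dpp, the receptor gene tkv and the GATA factor gene pnr, which also acts downstream of Dpp, had none. The windows held 16 distinct conservative peaks, which is 29.1 per Mb, against 7.84 per Mb on all arms. Among all protein-coding genes, 34.6% had at least 1 conservative peak in a window drawn the same way. The same 7 genes had a peak in the other thresholded list of both replicates, where 38.9% of all genes did, in the list of replicate 1, where 33.3% did, and in the list of replicate 2, where 21.9% did. Longer genes have wider windows, and the median window was 51.1 kb for the 10 genes and 42.2 kb for all genes. Of the 4 genes of 20000 bp or longer, tup and ush had a peak and dpp and tkv did not, and 42.5% of all genes that long had one. Of the 6 shorter genes 5 had a peak, against 34.0% of all shorter genes, but the 3 Dorsocross windows share peaks and are not separate observations.

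Several windows held more than 1 peak. At least 3 conservative peaks fell in the windows of 6 of the 10 genes, tup, ush, Doc1, Doc2, Doc3 and brk, and 2.79% of all protein-coding genes had as many. The 3 Dorsocross genes reached that count with shared peaks, so the 6 genes are not separate observations. The Doc3 start site was the nearest to none of the shared peaks. Ranked regions of any strength were about as dense as on the arms. The joint ranked list, which keeps regions far over the threshold, held 962 regions per Mb in the windows and 921 per Mb on the arms. Replicate 1 had 855 ranked regions per Mb in the windows and 780 on the arms, and replicate 2 had 831 and 795. Past the threshold, replicate 1 had 29.1 peaks per Mb in the windows against 7.28 on the arms, and replicate 2 had 19.999 against 3.90.

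Few of the peaks lay within 500 bp of a start site. No conservative summit was that near to a start site of any of the 10 genes. As 4.26% of all genes had such a summit, a count of 0 among 10 genes is near that share. The gene starts of tup, brk and tkv lay in stretches of over 7 kb without any region in the joint ranked list. No summit could be counted at those starts, so the count of 0 covers only the starts that were ranked. At 1000 bp the count was 2, with summits 546 bp from a ush start and 871 bp from the brk start. Counted over peaks, 1 of the 16 (6.25%) was within 500 bp of the start site of any gene, that of Ama near zen, compared with 413 of the 1078 conservative peaks on the arms (38.3%). The median distance to the nearest start site was 2306 bp for the 16 peaks and 1437.5 bp for all 1078. By location, 8 of the 16 were in introns and 8 between genes, and none was in an exon. The start sites of 5 genes, tup, ush, Doc1, Doc2 and brk, were the nearest to at least 1 conservative summit, which held for 6.19% of all protein-coding genes.

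**Figure D1:**
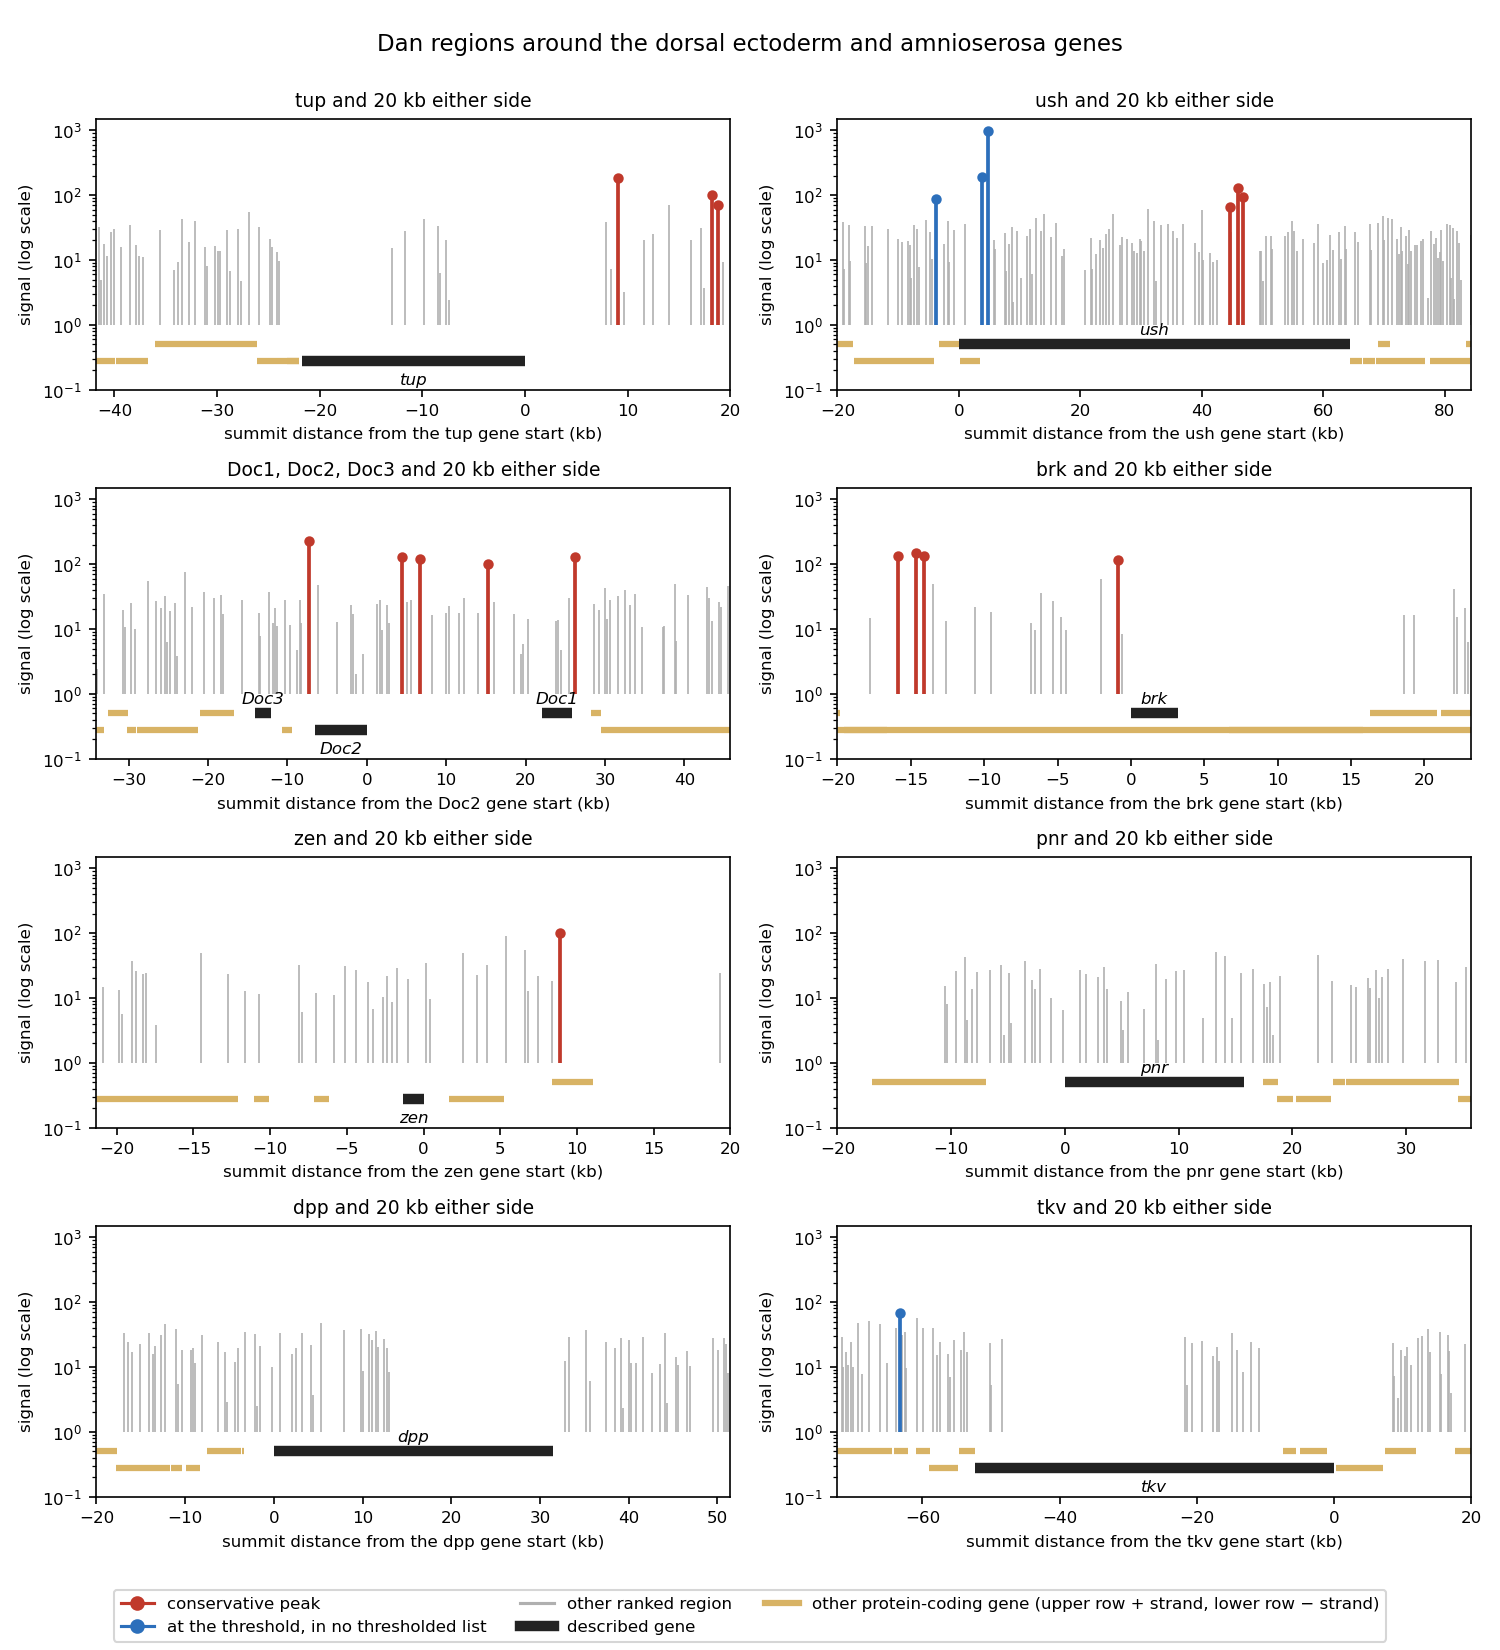
Signal (log axis) of each region of the joint ranked list against the distance of its summit from the gene start, in kb, with 1 panel for each of the 8 merged windows. Red lines are the 16 conservative peaks, blue lines are 4 regions at the threshold that are in no thresholded list, grey lines are all other ranked regions, and bars under each panel are genes.

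The peaks of tup, which encodes a LIM-homeodomain protein needed in the amnioserosa and dorsal tissues, all lay upstream of the gene. The strongest (chr2L:18890203-18890316) was 9023 bp upstream, between genes, with a signal of 185 in the joint list. Replicates 1 and 2 each gave it 89.0 in their own ranked lists, from which all replicate values here are taken. It was past the threshold in both. Another peak 18202 bp upstream had a joint signal of 99.8, with 39.5 in replicate 1 and 51.1 in replicate 2, and was also in both replicates' lists. A neighbour 18761 bp upstream had a joint signal of 70.8, with 40.8 in replicate 1 and 34.4 in replicate 2, and was in neither. The tup start site was the nearest to all 3. The other thresholded list had 2 more here, at 13997 bp upstream (signal 71.0) and beside the start of CG10602 past the far end of tup (66.7). The first of these was called in replicate 1 (46.7) and not in replicate 2 (23.0), and the second had no ranked region in replicate 1 and 24.2 in replicate 2.

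The 3 conservative peaks of ush, which encodes a zinc-finger partner of GATA factors that holds back Pannier, were all inside a ush intron. They lay together, 2595, 1306 and 546 bp upstream of a downstream start site of the gene. The middle peak (chr2L:521985-522334) was the strongest, with a joint signal of 129, and was past the threshold in replicate 1 (70.7) and replicate 2 (60.3). The peak at 546 bp had a joint signal of 93.1 and was past the threshold in replicate 2 (55.5) but not in replicate 1 (35.9). The peak at 2595 bp had a joint signal of 65.7, the lowest of the 16, and was in neither replicate's list (32.4 and 34.7). Its score, a scaled logarithm of the irreproducible discovery rate (IDR), was 838, just inside the lowest score of 830 in the conservative list. The IDR measures how well the ranks of regions match between replicates.

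A far stronger region near the main start of ush was in no thresholded list. The region (chr2L:480940-481245) lay in a ush intron, 4863 bp downstream of the ush start and 1395 bp from the start of the neighbouring gene cbt. With a joint signal of 989, it was rank 3 of all 130105 regions of the joint ranked list. Replicate 1 gave it 536, at rank 6, and replicate 2 gave it 453, at rank 4, so it was high in both. A second such region 371 bp from the cbt start had a joint signal of 194, with 95.5 in replicate 1 and 91.8 in replicate 2. One more, between genes, was 296 bp from the start of CG4297 and 3724 bp from that of ush, with a joint signal of 86.5 and replicate values of 46.2 and 40.5. All 3 had an IDR of at most 0.01, the level of the authors' threshold. On the arms 72 regions met that level in the joint ranked list without being in the conservative list, of which 47 were on X and 8 on 2L. All 172 of the 30-base words in the summit window of the strongest region occur at 1 place in the genome. A further file of unstated content was used for the thresholded lists, per the sample notes, and its part in their absence was not tested.

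Doc1, Doc2 and Doc3 encode T-box factors that are expressed in the amnioserosa and needed to maintain it, and their cluster held 5 conservative peaks. The strongest of all 16 (chr3L:9011861-9011970) lay between Doc3 and Doc2, with a joint signal of 232, 130 in replicate 1 and 98.8 in replicate 2. It was 6742 bp downstream of the Doc3 start and 7308 bp from the Doc2 start, while the nearest start site, at 2100 bp, was that of CG5194. Upstream of Doc2, in the stretch between Doc2 and Doc1, 2 peaks of similar strength lay 4479 and 6667 bp from its start. The nearer had a joint signal of 128, with 70.3 in replicate 1 and 66.2 in replicate 2. The farther had 121, with 63.8 in replicate 1 and 62.9 in replicate 2, and both were past the threshold in each replicate. The values of the replicates were close to each other at both.

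The other 2 Dorsocross peaks were less even. The peak 6914 bp upstream of Doc1 had a joint signal of 99.3, with 42.2 in replicate 1 and 49.2 in replicate 2. Its score was 27 in replicate 1 and 739 in replicate 2, both under the threshold, although its joint score was 1000. The peak past the far end of Doc1, 3606 bp from its start and 2004 bp from that of Argk2, had a joint signal of 131. It was past the threshold in replicate 1 (74.1) and not in replicate 2 (51.2).

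The only conservative peak in the window of zen, the homeobox gene that specifies amnioserosa, was inside another gene. It lay in an intron of Ama (chr3R:6762910-6763259), 319 bp from the Ama start and 8891 bp upstream of zen. Its joint signal was 101, with 67.6 in replicate 1 and 45.6 in replicate 2, and it was past the threshold in both. Its 201 bp window, at 21.4% G and C, was the lowest of the 16 in this measure, whose median was 34.6%, against 36.8% for all 1078 conservative peaks. The other thresholded list had a second peak, 88 bp from the start of bcd, the maternal anterior determinant, and 5360 bp from that of zen. That peak had a signal of 90.8 and was called in replicate 1 (62.2) and not in replicate 2 (26.1).

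brk, which encodes the repressor of Dpp targets, lies within CG1677, a much longer gene on the opposite strand, so all 4 of its peaks were in a CG1677 intron. One (chrX:7306893-7307242) was 871 bp upstream of brk, with a joint signal of 114, 47.0 in replicate 1 and 64.0 in replicate 2. The other 3 lay close together 14129, 14646 and 15875 bp upstream, where the nearest start site was that of unc-119, at 2512, 1995 and 766 bp. Their joint signals were 132, 149 and 135. In replicate 1 they had 84.1, 101 and 90.9, and in replicate 2 they had 58.9, 63.2 and 40.0, in the same order. The last was past the threshold in replicate 1 alone, and the 2 nearer to brk were past it in both replicates. The near peak was thus the only one of the 4 with more signal in replicate 2.

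The other thresholded list added 2 calls near brk. A peak in an intron of Dok, 17088 bp from the brk start, had a signal of 195. It was called in replicate 1 (122) and had no ranked region in replicate 2. The other call, 632 bp upstream of brk, overlapped the near conservative peak and had a signal of 8.28.

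**Figure D2:**
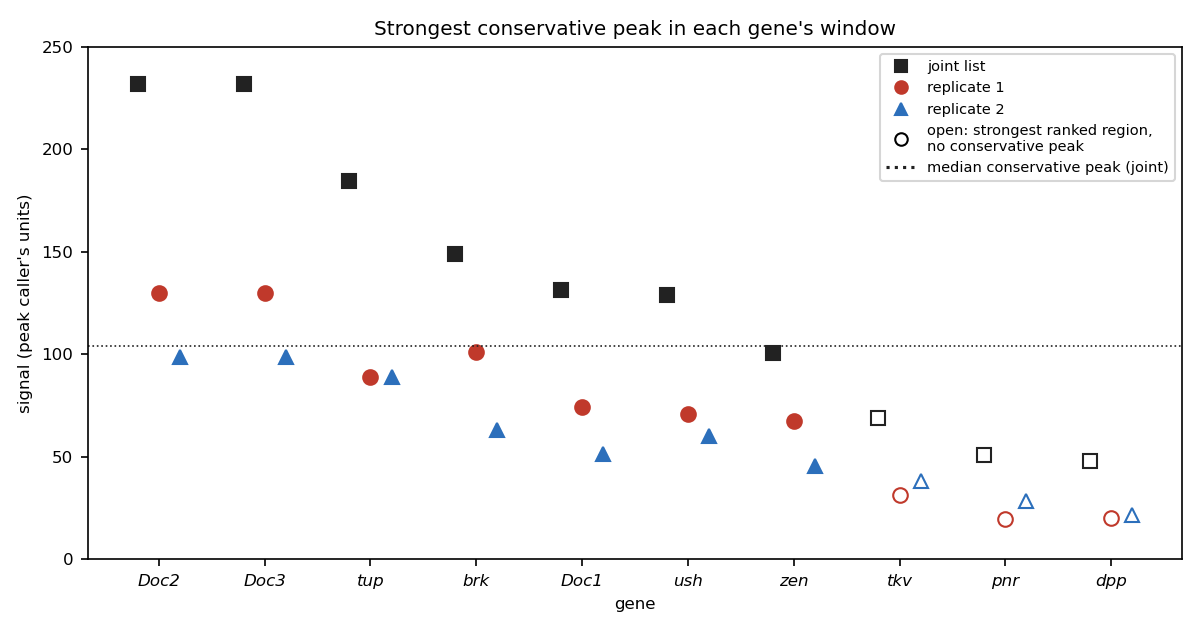
Signal, in the peak caller's units, of the strongest conservative peak in the window of each gene, in the joint list (squares), replicate 1 (circles) and replicate 2 (triangles). Open symbols are the strongest ranked regions of tkv, pnr and dpp, which had no conservative peak, and the dotted line is the median of all conservative peaks on the arms, 104.

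Order by strongest conservative peak in the joint list ran from Doc2 and Doc3, which share the peak of 232, through tup (185), brk (149), Doc1 (131) and ush (129) to zen (101). The order rests on the list. In the other thresholded list brk (195) stood above tup (185), and with the regions at the threshold that are in no thresholded list, ush (989) stood above all. Doc1 and ush stood close, and replicate values did not set them apart, at 74.1 and 51.2 for Doc1 and 70.7 and 60.3 for ush. The median over the 16 peaks was 124, with a range of 65.7 to 232, and that of all 1078 conservative peaks was 104, with a range of 3.36 to 1079. The windows thus held peaks of middling strength, not the strongest of the list.

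The 3 genes without a conservative peak also had none in the thresholded list of either replicate. For dpp, the strongest region of the joint ranked list (chr2L:2433506-2433855) was in a dpp intron 5309 bp from the start, with a signal of 48.1 and a score of 287. It had 19.95 in replicate 1 and 21.6 in replicate 2, at percentiles 83.4 and 83.8 of their ranked lists. For pnr it was a region in a pnr coding exon (chr3R:16039137-16039486) with a joint signal of 50.8 and a score of 357. This region had 19.4 in replicate 1 and 28.2 in replicate 2, at percentiles 81.9 and 94.6. The 16 conservative peaks were at percentile 97.6 or higher in replicate 1 and 97.9 or higher in replicate 2. A different region in the pnr window, in a coding exon of msps (chr3R:16058700-16058999), was within that range in replicate 2, with a signal of 37.6, a score of 732 and percentile 98.6. In replicate 1 the region there had 4.56, at percentile 9.96.

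For tkv the strongest region was at the level of the threshold. It lay in a coding exon of Cyp28d2 (chr2L:5208010-5208359), 29177 bp from the nearest tkv start, with a joint signal of 69.0 and a score of 860. It had 31.1 in replicate 1 and 38.2 in replicate 2, at percentiles 97.2 and 98.7. Its joint signal was above that of the weakest conservative ush peak (65.7). Like the 3 ush regions, it was in no thresholded list.

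Parts of the windows had no region of any strength in the joint ranked list, which therefore gives no value there. Stretches of over 7 kb without a ranked region made up 27.3% of the arms in the joint list. They covered 49.2% of the tkv window, 43.7% of the brk window, 41.6% of the tup window, 27.3% of the dpp window, 24.3% of the zen window and 16.6% of the pnr window, and none of the ush or Dorsocross windows. In the joint list the brk stretch, of 18.9 kb, began just downstream of its near peak and held the whole gene. The Dok call of the other thresholded list, with its value in replicate 1, lies inside this stretch, so another list can hold a region where the joint ranked list has none. The dpp stretch, of 19.5 kb, held the distal part of the gene. In the replicates' own ranked lists, such stretches covered 24.5% and 25.7% of the dpp window and 42.4% and 51.0% of the tkv window. They covered 39.7% of the pnr window in replicate 1 and none of it in replicate 2. For dpp, tkv and pnr, the absence of a peak therefore covers only the sequence that was ranked in each list.

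**Figure D3:**
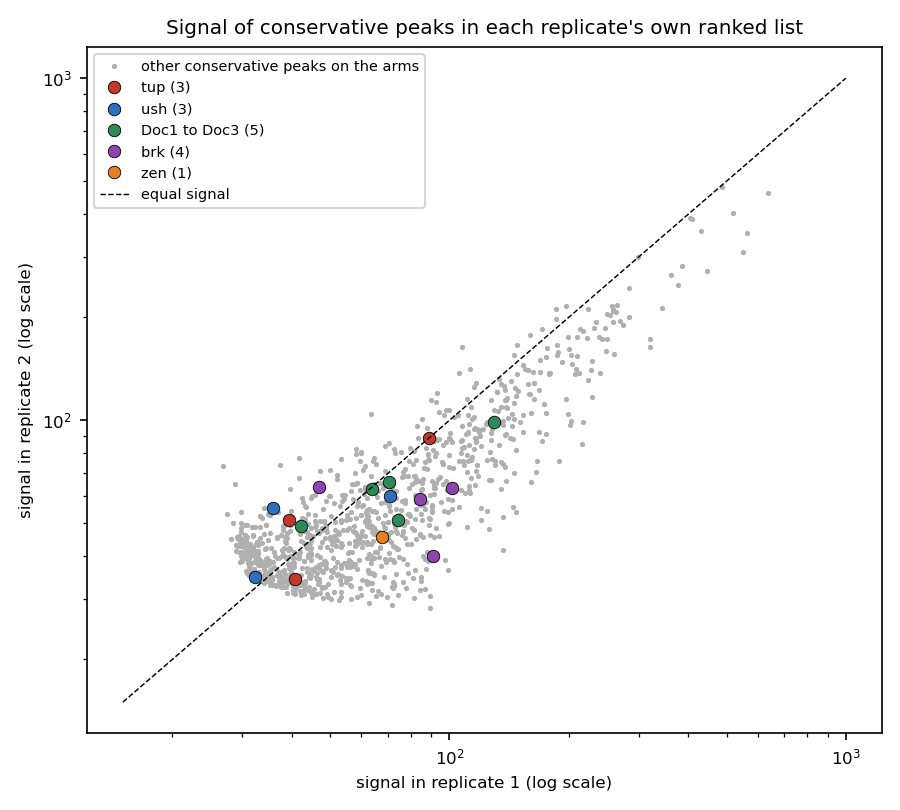
Signal of each conservative peak on the arms in replicate 1 and in replicate 2, both on log axes and from each replicate's own ranked list, with peaks near the described genes coloured by locus and the dashed line at equal signal. The 16 coloured points lie on both sides of the line, 10 of them with more signal in replicate 1.

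The replicates differed most at the brk peak nearest to unc-119, with 90.9 in replicate 1 and 40.0 in replicate 2. The log2 ratio of replicate 1 to replicate 2 signal ran from -0.63 to 1.18 over the 16 peaks, with a median of 0.16, and 10 of 16 were higher in replicate 1. Over the 1059 conservative peaks with a value in both, the median was 0.25 and 745 were higher in replicate 1. The scale of the signal is not stated, so these ratios describe position in the lists and not an amount of binding. Of the 16, 10 (62.5%) were past the threshold in both replicates, compared with 41.7% of all 1078, and 3 (18.75%) were past it in neither, compared with 29.2%. Those 3 were the weakest ush peak, the farthest tup peak and the peak upstream of Doc1. All 16 were in the other thresholded list of both replicates, as were 90.8% of all 1078.

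The peaks of a locus lay close together. Another conservative summit was within 2500 bp of 10 of the 16 (62.5%), and of 208 of all 1078 (19.3%). The 10 were the 3 of ush, the far pair upstream of tup, the pair upstream of Doc2 and the 3 far upstream of brk. The median distance to the next summit was 1738.5 bp, against 21631 bp over the arms. The distance of 2500 bp was chosen after the positions had been seen, and peaks of 1 cluster are not independent.

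The strings of known factors were each in at most 3 of the 16 summit windows of 201 bp. GATAAG, read by GATA factors such as Pannier, was in 3 of the 16 windows (18.8%), compared with 9.09% of the windows of all 1078 conservative peaks. These were the strongest tup peak, the nearer peak upstream of Doc2, with a copy on each strand, and the peak upstream of Doc1. That Doc1 window also held the Brinker strings GGCGCT and TGGCGC, which overlap there in a single site, and each was in 1 of 16 windows, against 5.29% and 8.07% of all. The T-box core GTGTGA was in 1 window, that of the peak past Doc1, compared with 8.35% of all. GAGAGA was in none of the 16 and in 11.3% of all, TAATTA in none and in 13.0% of all, CAGGTAG in none and in 1.30% of all, and the silencer element in none and in 0.186% of all. These counts rest on the width. With 200 bp either side of the summit, GATAAG was in 6 of 16 (37.5%, against 17.3% of all), TAATTA in 5 (31.25%, against 20.1%) and TGGCGC in 4 (25%, against 16.9%). The silencer element was in 1 (6.25%, against 0.649%) and GGCGCT in 2 (12.5%, against 12.4%). Under the share of all were GAGAGA, in 1 (6.25%, against 24.5%), GTGTGA, in 2 (12.5%, against 20.5%), and CAGGTAG, in 0 (against 2.78%).

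CAGTG was the commonest string, in 11 of 16 windows (68.8%), and was also in 54.0% of all windows. With 50 bp either side it was in 2 of 16 (12.5%), under the 19.9% of all, so its place beside the background turned with the width. At that width GATAAG was in 3 of 16 (18.8%, against 4.36% of all) and GTGTGA in 1 (6.25%, against 3.15%). The other strings of known factors were in none, and each was in at most 7.98% of all. GAGTGCA, added after the sequences were seen, was in 4 of 16 (25%), namely 2 of tup, the one upstream of Doc1 and 1 far upstream of brk, and in 4.55% of all. GTGCACT was in 4 of 16 and in 7.14% of all. With 50 bp either side, GAGTGCA was in 1 of 16 (6.25%, against 1.30% of all) and GTGCACT in none (against 2.13%). A match is a description of the letters, and a string that is missing from a window says nothing of the factor.

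The rest of the pathway was read from 3 further lists of named genes with 44 genes in all. Of 18 other BMP pathway genes, 11 (61.1%) had a conservative peak in the window, beside the 34.6% of all genes. They were Dad, Mad, Med, cv, cv-2, gbb, nej, shn, sog, tld and tok. The calls of tld and tok were a shared peak, 348 bp from the start of CG13631, and are not separate observations. The strongest peaks were near gbb, a second BMP ligand gene (371, with 199 in replicate 1 and 175 in replicate 2), cv (285, with 163 and 128), Med, the Medea gene (251, with 151 and 99.0), and cv-2, which encodes a BMP-binding protein (245, with 139 and 91.0). All 4 lay nearer to the start of another gene, which was eIF6 for gbb (111 bp) and Mnat9 for Med (23 bp). Only for Mad, shn and sog, which encode the Dpp signal transducer, its partner in repression and the Dpp antagonist Short gastrulation, was the nearest start site their own, and those peaks were inside the gene. Their signals were 178 at Mad, 207 at shn and 104 at sog. The type I and type II receptor genes sax, put and wit had no conservative peak, and neither had tkv.

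The genes listed for the same tissues and for the wider dorsoventral axis had shares nearer to the 34.6% of all genes. The list for the same tissues also holds genes named below for other roles, such as tin and Antp. The shares of the lists were not tested against each other. Of 13 other dorsal ectoderm and amnioserosa genes 6 (46.2%) had one, Ance, a peptidase gene and amnioserosa marker (198), the heart homeobox gene tin (167), rho, which encodes a protease of EGF signalling (162), the Hox gene Antp (128), C15 and zen2, the last through the Ama peak that zen shares. Antp alone of these had the nearest start site, and the Ance peak was in an exon of Smg5, 70 bp from the Smg5 start. No conservative peak lay in the windows of peb, srp, Kr, net, egr, Alk and Egfr, which are in the same list. Of 13 dorsoventral axis genes 4 (30.8%) had one, the homeobox gene Dr (115), the FGF ligand genes ths and pyr through a shared peak (107) and the Toll receptor gene Tl (81.1). The other 9 genes of this list had none. The median number of conservative peaks per gene was 3 for the 10 described genes, with a shared peak counted for each gene. It was 1 for the BMP pathway list and 0 for the other lists and for all protein-coding genes.

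**Figure D4:**
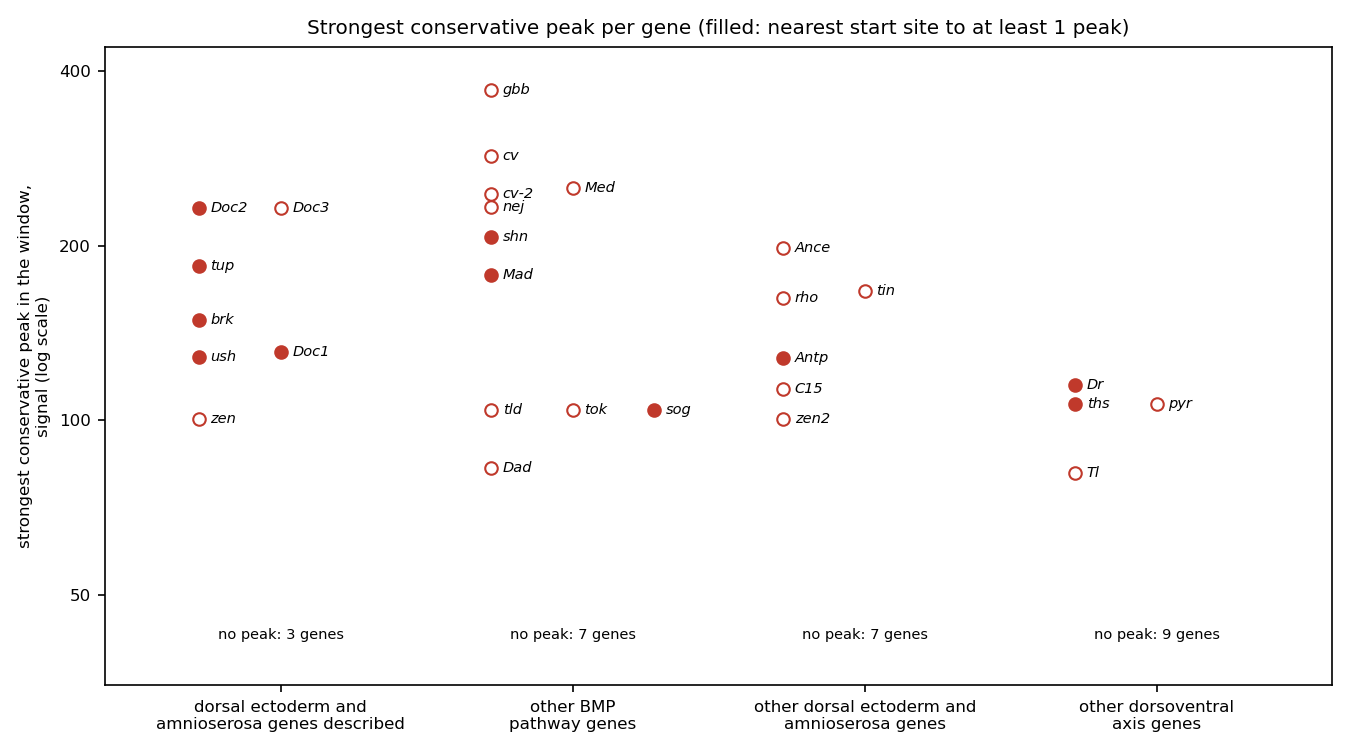
Signal (log axis) of the strongest conservative peak in the window of each gene with a peak, for the 10 described genes and the 3 further lists, with the number of genes without a peak at the foot. Filled points are genes whose start site is the nearest to at least 1 conservative summit, which holds for 5 described genes and for 3, 1 and 2 genes of the other lists.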

How the data were processed

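Peak lists for 2 biological replicates were analysed, with regions of at most 350 bp in the lists made from both replicates. Per the labels, chromatin was sonicated to 200 to 800 bp and the build was dm6. Which aligner and peak caller were used is not given in the sources used here. The authors' signal is the peak caller's own value per region, on a scale that is not stated. The deposited score rises with the negative logarithm of the IDR up to 1000, and thresholded lists began at 830 or 831, an IDR of 0.01. The deposited −log10 q was used as an alternative ranking.

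The 10 genes, the 3 further lists and the strings were chosen with earlier results of these data known. Genes came from Ensembl release 115 and sequence from RefSeq Release 6. The rule for naming was all 10 genes, every thresholded peak in their windows, the called genes of the 3 lists, and the 4 strongest with values. Mad, shn, sog and genes without a peak were named beyond it after their values were seen. A region counted with at least 1 bp in a window. Replicate values are the strongest overlapping region of each replicate's ranked list. Of the 2 joint ranked lists, the one that holds all 1170 conservative peaks was used. Alternatives were the other list, single replicates, other IDR levels, windows, overlaps and distances. Functions were tested on simulated data. The tools were matplotlib 3.10.9, pandas 2.3.3, numpy 2.4.6 and Python 3.11.15.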

Additional observations from a re-analysis of the deposited data

Results flagged for a closer look

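The joint ranked list held 4 regions near these genes that were at or under an IDR of 0.01 and in none of the thresholded lists, and they are noted here because no count of peaks above includes them. Near ush they had signals of 989 in the intron next to cbt, 194 beside the cbt start and 86.5 beside the CG4297 start. Near tkv the region in Cyp28d2 had a signal of 69.0. There were no control samples, and the limit that a count of 0 allows cannot be given for a signal without read counts.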

How the results depend on the processing

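Of the main counts under an alternative, 33 gave a similar value, 15 moved and none reversed. Of the values of strongest peaks and strings, 29 were similar and 30 moved, with the order and the string counts as given in the report. With the list of 1 replicate alone, the 10 genes had 11 to 16 peaks (19.999 to 29.1 per Mb), 7 genes had a peak in either case, 4 were nearest to a summit, none had a summit within 500 bp, and the further lists had 13 to 21 genes with a peak, against 21. Without replicate 1 the last count was 13 of 44, where 21.9% of all genes had a peak. At an IDR of at most 0.001 the peaks fell from 16 to 7 (12.7 per Mb, against 2.62 on the arms). The genes nearest to a summit fell from 5 to 2, and the further genes with a peak to 10 of 44, where 15.9% of all genes had one. At 0.05 there were 25 peaks (45.5 per Mb, against 18.9 on the arms). These IDR counts include regions in no thresholded list. Windows of 5000 bp held 7 peaks, with 11 further genes, and windows of 50000 bp gave 32 further genes. The gene body alone held 3 peaks (14.8 per Mb) at 1 gene, ush, against 5.08% of all genes, with 6 further genes. At 1000 bp from a start site, 2 genes had a summit, against 0 at 500 bp. The share of all genes is not given for that distance, nor for the nearest genes under other lists and IDR levels. Those counts therefore stand without a background. Under other windows and IDR levels the genes with a peak numbered 5 to 8. Windows of 5000 bp lost tup and zen (14.8% of all genes had a peak), and windows of 50000 bp added dpp (58.7%). An IDR of 0.001 lost zen (15.9%) and 0.05 added tkv (55.8%). The tkv region had an IDR of 0.00849, already under 0.01, and came in because these settings read the joint ranked list. At 0.001 ush stayed only through regions in no thresholded list, as its strongest conservative peak had an IDR of 0.00109. No paired analysis was possible because there is a single group. Depth is unknown, so a missing peak may not have been detectable, and the 2 replicates come from 1 strain.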
